A study of Homo sapiens with 6 samples.

Results

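The 10 genes described here encode AP-1 and C/EBP transcription factors and were followed through RNA-Seq libraries of U87 cells treated with rutaecarpine. The genes were chosen by name, namely FOS, FOSB, FOSL1, FOSL2, JUN, JUNB, JUND, ATF3, CEBPB and CEBPD. All 10 were found among the 60671 genes of the deposited table, 9 by their symbol and CEBPD by its Ensembl identifier, because the table gives that identifier no name. U87 is an established human glioblastoma cell line, so the experiment describes 1 line and no tumour. The control group (n = 3 libraries) received 0.1% DMSO, the solvent, and the rutaecarpine group (n = 3 libraries) received 100 μM rutaecarpine, a plant alkaloid, in 0.1% DMSO. Both groups were exposed for 48 h. The labels give 10% fetal bovine serum in the growth medium and a medium without serum for dosing. The study used these libraries to look for migration-related genes that respond to rutaecarpine, an activator of the aryl hydrocarbon receptor (AhR). The labels do not say whether the 3 libraries of a group came from separate cultures, so the p values below measure the spread between these libraries, which may be technical.

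AP-1 is a dimer of basic leucine zipper (bZIP) proteins. A JUN protein pairs with another JUN protein, with a FOS protein or with an ATF protein, and the pair binds the AP-1 site TGACTCA or the cyclic AMP response element (CRE) TGACGTCA. FOS and JUN are classical immediate early genes, switched on within minutes of growth factor or stress signals through MAP kinases, while FOSL1, FOSL2 and JUND last longer. ATF3 is a stress-induced member of the ATF family and is known as a target of ATF4 in the integrated stress response. CEBPB and CEBPD encode bZIP factors of inflammation and the acute phase response, and both have been described, with STAT3, as regulators of the mesenchymal state of glioblastoma.

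The deposited values are TPM, which are scaled by transcript length and can be compared between genes, and which keep no read number. The depth of the libraries is therefore unknown, and so is the counting error of each value. Between 13758 and 14475 genes per library reached 1 TPM. Control replicate 3 stood apart, with a median log2(TPM + 1) over the tested genes of 3.56 against 3.81 to 4.00 in the other 5 libraries, and results that rest on it are given with and without it. Of 7 glioma line markers, VIM was at 7498 ± 499 TPM (SD, n = 3) in the control group and CD44 at 655 ± 210, whereas S100B and SOX2 were near 0 in both groups. VIM and NES fell after rutaecarpine and OLIG2 rose, although, with 1 library left out, NES and OLIG2 passed only without control replicate 3, and VIM did not pass without rutaecarpine replicate 3 (limma adjusted p = 0.0527) or with the libraries centred on their medians (0.0768). The summed TPM of 6 markers of leukocytes, endothelium, epithelium, neurons and hepatocytes lay between 0.83 and 2.29 in the control libraries and between 1.47 and 2.22 in the rutaecarpine libraries, and none of the 6 was high enough to be tested.

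Promoter sequences of the 8 genes with an entry in the RefSeq promoter table (GRCh38.p14, 250 bases before to 50 bases after each start) show what surrounds these genes' starts. FOSL1 and CEBPD have no entry. Several of the genes are themselves known targets of CRE and AP-1 binding proteins. The stretches below are therefore the closest to a CRE in 4 of the genes, each 28 bases, 5′ to 3′ on the gene's strand. FOSL2 also holds a stretch with 1 mismatch, which begins 204 bases before its start and is not shown. Capitals mark the CRE or the 8 bases that differ from it at 1 position.
FOSB: aaggggcgggTGACGTAAgcaggggggc
JUN: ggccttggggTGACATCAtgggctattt
ATF3: acctatgataTGACATCAtatggccact
JUND: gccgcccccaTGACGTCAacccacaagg
The FOSB stretch is chr19:45467926-45467953 on the plus strand, the JUN stretch chr1:58784097-58784124 on the minus strand, the ATF3 stretch chr1:212565274-212565301 on the plus strand and the JUND stretch chr19:18281805-18281832 on the minus strand. GENCODE release 29 starts JUN farther upstream than RefSeq, and all 28 bases of the JUN stretch lie within its gene. ATF3 has 2 RefSeq starts, and its site begins 123 bases before the upstream one. Before the other, the closest stretch differs from the CRE at 2 positions. The site begins 60 bases before the RefSeq start in FOSB, 67 in JUN and 200 in JUND. The last of these is the only complete CRE in the 10 windows of the 8 genes, and 1.85% of 35116 RefSeq promoters hold one.

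FOS, CEBPB and JUNB hold no such stretch but contain TGACG, the first 5 bases of the CRE, shown in capitals for FOS and CEBPB.
FOS: ggttgagcccgTGACGtttacactcatt
CEBPB: aggggccggcgTGACGcagcggttgcta
The FOS stretch is chr14:75278753-75278780 and the CEBPB stretch chr20:50190762-50190789, both on the plus strand, with the site 64 and 57 bases before the start. CEBPB has 2 RefSeq starts, and TGACG was found only in the window of the downstream one. In GENCODE release 29 the last 7 bases of the FOS stretch and all 28 of the CEBPB stretch lie within the gene. TGACG on either strand was found in 7 of the 8 genes, all but ATF3, and in 7 of their 10 windows, against 24.6% of all promoters. The shares of all promoters count single windows, whereas the counts out of 8 are of genes with a match in any window. A stretch with at most 1 mismatch to the CRE within the 250 bases upstream was found in 5 of the 8, namely FOSB, FOSL2, JUN, JUND and ATF3, against 10.5% of all promoters. The searches for TGACG and for this stretch were added after these promoters had been seen. Their shares therefore describe the sequences and cannot show that the genes are richer in these letters. The AP-1 site TGACTCA was found only in FOSL2, 5 bases after the start (4.95% of promoters). The AhR core GCGTG was found in 5 of the 8, FOS, FOSB, JUN, JUNB and CEBPB (36.5% of promoters), and the longer form TNGCGTG, searched as a dioxin response element (DRE), in 0 of the 8 (5.51%). The study searched for this element in a longer stretch, upstream of the coding sequence, so the 0 cannot be set against its counts. The C/EBP motif TTGCNNAA was found only at the other of the 2 ATF3 starts (10.5%) and the CArG box, the serum response factor motif, in none of the windows (1.29%). Sites more than 250 bases upstream of a start were not searched. Both strands were searched, and each CRE or DRE match is also a TGACG or GCGTG match. These matches describe letters in a window and say nothing about binding.

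The groups were compared on the log2(TPM + 1) scale with limma, and Benjamini-Hochberg adjustment ran over the 14377 genes that reached 1 TPM in 3 or more libraries. A gene passed the test at an adjusted p no higher than 0.05 and was counted as a DEG when its log2 fold change also lay beyond 1 in either direction. All 10 genes entered the test. The DEGs were ATF3 and FOSB, both up, which makes 2 of 10 against 2.01% of all tested genes, and 0 of 10 were DEGs by limma in the other direction, against 1.50%, where 1 of 10 was lower at an unadjusted p under 0.05. Without the threshold on fold change, 6 of 10 rose (JUN, JUNB, JUND, FOSB, ATF3 and CEBPB) against 4.60% of all tested genes, and CEBPD fell, against 4.68%. All rutaecarpine libraries lay apart from all controls for 8 genes that were higher after rutaecarpine (19.3% of tested genes) and for 1 that was lower (14.0%). JUN, ATF3, CEBPB and CEBPD, 4 of the 10, passed the test in each of 15 alternative fits, and no gene's direction changed in any of them. The median log2 fold change of the 10 was 0.52, beside 0.08 over all tested genes. For a single gene, 3 libraries against 3 can give an exact permutation p no smaller than 0.1, and the adjusted p values come from gene-wise spreads that limma moderates across genes. In bulk RNA a change in every cell and a change in the number of cells that express a gene cannot be told apart.

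**Figure D1:**
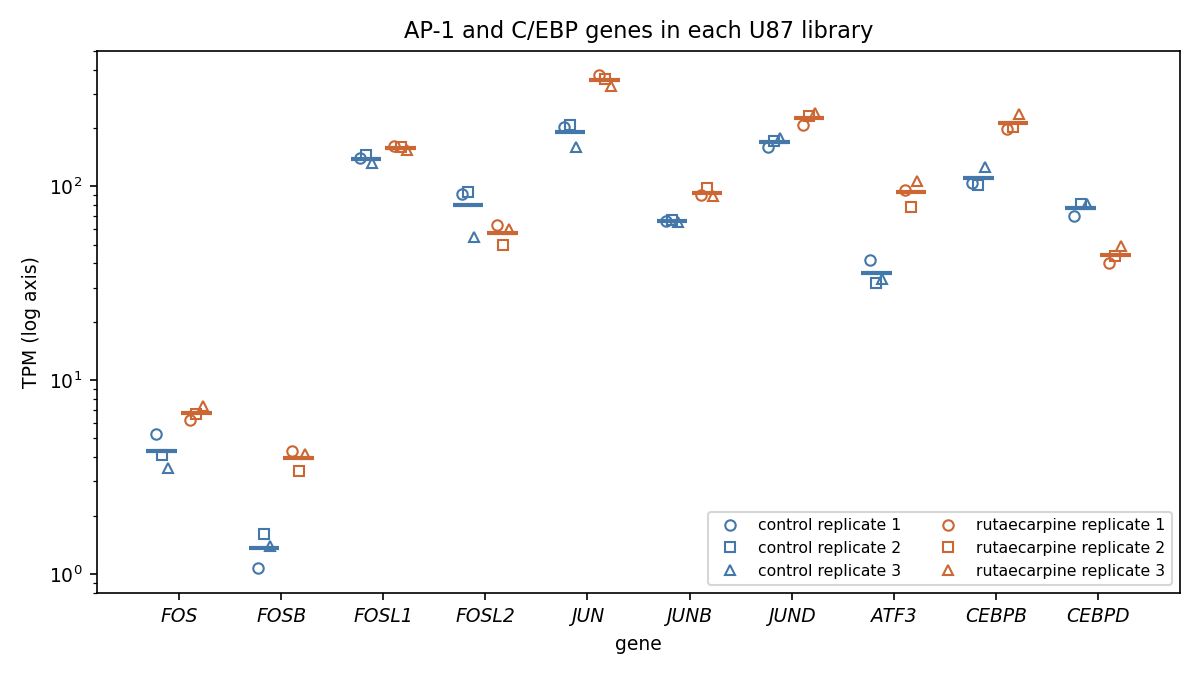
TPM (log axis) of the 10 genes in each of the 6 libraries, with circles, squares and triangles for replicates 1, 2 and 3 and a bar at each group mean. JUN, JUNB, JUND, FOS, FOSB, FOSL1, ATF3 and CEBPB lie higher in every rutaecarpine library, CEBPD lies lower in every one, and FOSL2 overlaps because of control replicate 3 at 54.7 TPM.

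The JUN subfamily supplies the obligate partners of FOS proteins, and all 3 of its genes rose. JUN (ENSG00000177606, chromosome 1, 58780788 to 58784327, minus strand, GRCh38 as in GENCODE release 29) had 203, 206 and 159 TPM in control replicates 1 to 3 and 373, 358 and 328 TPM in the rutaecarpine libraries. The lowest rutaecarpine library was far above the highest control. JUN rose by a log2 fold change of 0.90 (standard error, SE, 0.12, limma adjusted p = 0.00514), or 1.86 times the control mean, the largest change of the subfamily.

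JUNB (ENSG00000171223, chromosome 19, 12791496 to 12793315), which often opposes JUN on growth genes, had 66.6, 67.1 and 65.7 TPM in the control libraries and 90.6, 97.7 and 88.6 TPM after rutaecarpine. Its controls were the tightest of the 10 genes relative to their mean, and its log2 fold change was 0.47 (SE 0.08, limma adjusted p = 0.0140). JUND (ENSG00000130522, chromosome 19, 18279760 to 18281622, minus strand), the subfamily member expressed most steadily in resting cells, had 160, 171 and 177 TPM in the control libraries and 208, 229 and 239 TPM after rutaecarpine. The groups did not overlap, and the log2 fold change was 0.41 (SE 0.09, limma adjusted p = 0.0283). The rises of JUNB and JUND were the least secure of those that passed. With the libraries centred on their medians the adjusted p from limma was 0.183 for JUNB and 0.311 for JUND, and leaving out 1 library at a time, both passed in 1 of 6 fits, that without control replicate 3. In the other 5 the adjusted p from limma rose to 0.0669 for JUNB and 0.137 for JUND at most.

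The FOS subfamily moved less evenly. FOSB (ENSG00000125740, chromosome 19, 45467995 to 45475179), an immediate early gene whose shortened form accumulates under repeated stimulation, was the weakest of the 10 genes, with 1.07, 1.60 and 1.40 TPM in the control libraries and 4.32, 3.40 and 4.15 TPM after rutaecarpine. Every rutaecarpine library was above every control. FOSB rose by a log2 fold change of 1.07 (SE 0.18, limma adjusted p = 0.0124), and the plain ratio of means was 2.92, because the added 1 shrinks the fold change of weak genes. Its place among the DEGs depended on single libraries, since the adjusted p from limma was 0.0545 without control replicate 1, 0.0686 without rutaecarpine replicate 1 and 0.0680 without rutaecarpine replicate 3. ERCC1, a DNA repair gene, lies antisense over the whole of FOSB (7185 bases) at 99.2 ± 0.63 TPM in controls and 114 ± 6.52 TPM after rutaecarpine. Whether the reads keep their strand is not given in the sources used here, so reads of ERCC1 and FOSB may not be told apart, and the part of ERCC1 in the FOSB values was not tested.

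FOS (ENSG00000170345, chromosome 14, 75278774 to 75282230), the classical immediate early gene, had 5.24, 4.10 and 3.52 TPM in the control libraries and 6.24, 6.69 and 7.38 TPM after rutaecarpine. The groups did not overlap, but the log2 fold change of 0.57 (95% interval 0.14 to 0.99) had an adjusted p of 0.109 from limma and did not pass. FOSL1 (ENSG00000175592, chromosome 11, 65892049 to 65900573, minus strand), which encodes FRA-1 and is often high in invasive tumour cells, had 139, 145 and 132 TPM in the control libraries and 161, 159 and 153 TPM after rutaecarpine. Again the groups did not overlap, and the log2 fold change of 0.19 (95% interval 0.01 to 0.36) had an adjusted p of 0.187 from limma.

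FOSL2 (ENSG00000075426, chromosome 2, 28392448 to 28417312), which encodes FRA-2, had 91.1, 93.6 and 54.7 TPM in the control libraries and 63.2, 49.5 and 60.0 TPM after rutaecarpine. Control replicate 3 lay within the rutaecarpine range while the other controls lay above it. The log2 fold change was -0.43 (95% interval -0.94 to 0.08, adjusted p = 0.278 from limma) with all 6 libraries and -0.68 (adjusted p = 0.00624 from limma) without control replicate 3.

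ATF3 (ENSG00000162772, chromosome 1, 212565334 to 212620777) had the largest change of the 10 genes on the log2(TPM + 1) scale, although the plain ratio of means was larger for FOSB. It had 41.7, 31.7 and 33.4 TPM in the control libraries and 95.7, 78.4 and 106 TPM after rutaecarpine, so the lowest rutaecarpine library was well above the highest control. ATF3 rose by a log2 fold change of 1.37 (SE 0.15, limma adjusted p = 0.00269), which is 2.62 times the control mean and stands at the 98.8 percentile of the fold changes of all tested genes. It remained a DEG in every fit with 1 library left out, with log2 fold changes between 1.27 and 1.49.

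The genes of the integrated stress response around ATF3 rose together, 7 of 7 passing the test and 6 of 7 being DEGs. Over all tested genes 4.60% passed and were higher, and 2.01% were DEGs up. This list and the gene lists below were chosen with earlier results of these data known, so their counts and medians are no independent test. ATF4 and DDIT3 are also counted among the other bZIP partners below. The median log2 fold change of the 7 was 1.59, beside 0.08 over all tested genes. ATF4, the translationally controlled activator of this response, rose from 632 ± 32.2 TPM (SD, n = 3) to 1196 ± 107, a log2 fold change of 0.92 (adjusted p = 0.00155 from limma). DDIT3, which encodes CHOP, a bZIP protein that pairs with C/EBP factors, rose from 109 ± 28.5 to 326 ± 58.2 TPM. TRIB3, a pseudokinase induced by ATF4 and CHOP, rose from 21.6 ± 3.93 to 91.9 ± 13.2 TPM, and ASNS, asparagine synthetase, from 60.2 ± 10.4 to 161 ± 10.2 TPM. CHAC1, which degrades glutathione, PPP1R15A, which encodes the phosphatase subunit GADD34, and SESN2, a stress sensor of the mTORC1 pathway, had log2 fold changes of 1.45, 1.70 and 1.69.

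CEBPB and CEBPD moved in opposite directions. CEBPB (ENSG00000172216, chromosome 20, 50190734 to 50192689) had 104, 101 and 125 TPM in the control libraries and 198, 201 and 235 TPM after rutaecarpine. All 3 rutaecarpine libraries were well above the controls, and CEBPB rose by a log2 fold change of 0.94 (SE 0.11, limma adjusted p = 0.00393), just short of the threshold of 1. It was 1.04 without control replicate 3, where CEBPB was a DEG.

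CEBPD (ENSG00000221869, chromosome 8, 47736909 to 47739086, minus strand) had 69.9, 81.1 and 81.2 TPM in the control libraries and 40.1, 43.8 and 49.5 TPM after rutaecarpine. It was the only one of the 10 genes whose rutaecarpine libraries all lay below the controls. CEBPD fell, with a log2 fold change of -0.79 (SE 0.11, limma adjusted p = 0.00706) and a rutaecarpine mean of 0.574 times the control mean. The ratio of CEBPB to CEBPD in TPM was 1.48, 1.25 and 1.54 in the control libraries and 4.95, 4.59 and 4.75 in the rutaecarpine libraries. This ratio does not depend on the scaling of a library, and its groups did not overlap (exact permutation test, two-sided, p = 0.1, the smallest that 3 against 3 allows).

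**Figure D2:**
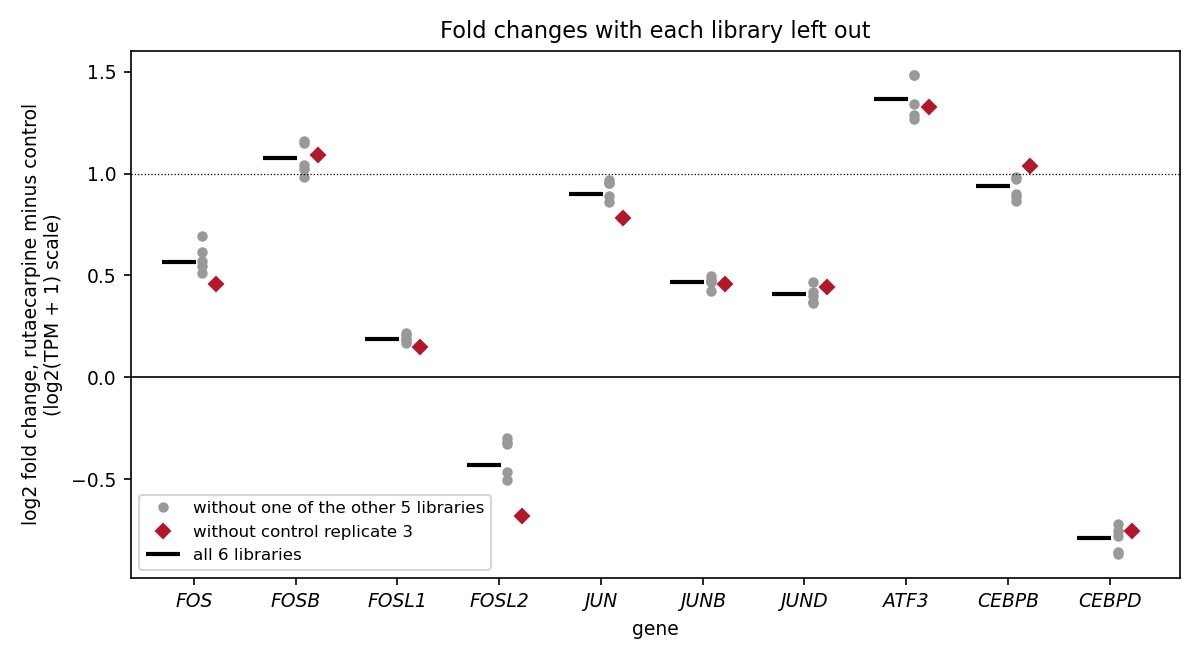
Log2 fold change of each of the 10 genes, rutaecarpine minus control on the log2(TPM + 1) scale, with all 6 libraries (bar), without control replicate 3 (diamond) and without each of the other 5 libraries (grey points). No gene crosses 0, FOSL2 moves from -0.43 to -0.68 without control replicate 3, and FOSB and CEBPB lie close to the dotted threshold of 1.

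In the control group the order of mean TPM was JUN at 190, JUND at 169, FOSL1 at 139, CEBPB at 110, FOSL2 at 79.8, CEBPD at 77.4, JUNB at 66.5, ATF3 at 35.6, FOS at 4.29 and FOSB at 1.36. JUN and JUND overlapped between libraries, as did FOSL2 and CEBPD, while every other neighbouring pair was apart. After rutaecarpine JUN was alone at the top at 353, followed by JUND at 225 and CEBPB at 211, which overlapped. FOSL1 came next at 158, then ATF3 at 93.4 and JUNB at 92.3, which overlapped, FOSL2 at 57.6, CEBPD at 44.4, FOS at 6.77 and FOSB at 3.96. ATF3 thus stood level with JUNB after rutaecarpine, where it had been lower than JUNB in every control library.

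Summed over their genes, the JUN subfamily had 425 ± 21.2 TPM (SD, n = 3) in control libraries and 671 ± 14.3 TPM after rutaecarpine, while the FOS subfamily was at 224 ± 28.6 and 226 ± 8.47 TPM. The FOS sums of the groups overlapped (exact permutation test, two-sided, p = 1.0), and the difference of 2.03 TPM became -14.4 TPM without control replicate 3. The ratio of JUN to FOS subfamily transcripts was 1.82, 1.82 and 2.10 in the control libraries and 2.86, 3.13 and 2.92 after rutaecarpine, with no overlap. Of the FOS subfamily transcripts, FOSL1 made up 62.4% ± 5.61 in the control group and 69.9% ± 2.51 after rutaecarpine (exact permutation p = 0.3), FOSL2 35.1% ± 5.65 and 25.4% ± 2.39, FOS 1.91% ± 0.275 and 3.00% ± 0.320, and FOSB 0.613% ± 0.144 and 1.75% ± 0.165. FOSL1 and FOSL2 thus held nearly all FOS subfamily transcripts in both groups. The FOSL1 shares of the groups overlapped because of control replicate 3, at 68.8%. Without that library the difference of 7.5 percentage points became 10.7. JUN went from 44.5% ± 4.23 to 52.6% ± 2.77 of its subfamily and JUND from 39.9% ± 3.67 to 33.6% ± 2.74.

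Among the C/EBP genes, CEBPB went from 52.8% ± 3.35 to 70.6% ± 0.776 of the summed TPM of CEBPA, CEBPB, CEBPD and CEBPG, CEBPD from 37.2% ± 2.02 to 14.8% ± 0.430, and CEBPG from 9.98% ± 1.92 to 14.5% ± 0.587. CEBPA was listed at 0 in all 6 libraries. In all, 14 sums and shares were compared. Those whose groups did not overlap had an exact permutation p of 0.1, the smallest possible, and 0.127 after Benjamini-Hochberg adjustment over the 14, so none could pass a threshold of 0.05 in this design.

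**Figure D3:**
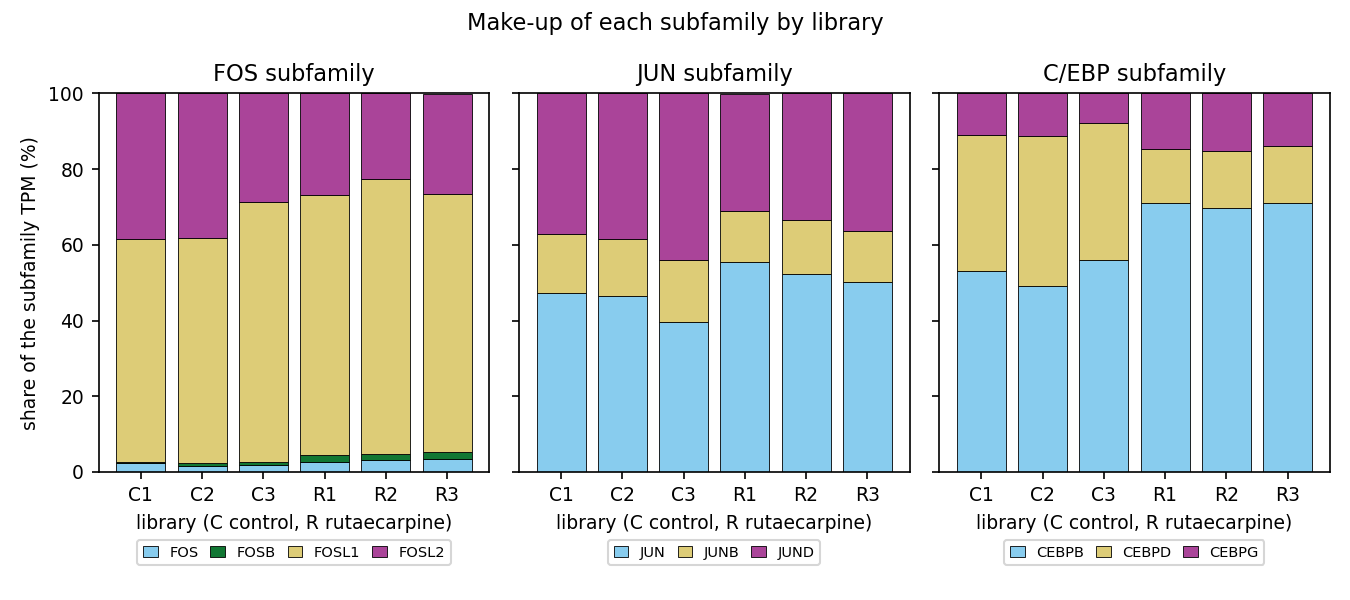
Share of each gene in the summed TPM of its subfamily (percent) in control (C) and rutaecarpine (R) libraries, as stacked bars that reach 100%. CEBPD falls from 35.9 to 39.6% of the C/EBP transcripts in the control libraries to 14.4 to 15.2% in the rutaecarpine libraries. FOSL1 makes up between 58.9 and 72.7% of the FOS transcripts throughout, with groups that overlap because of control replicate 3 at 68.8%.

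Of the other bZIP genes whose proteins pair with AP-1 or C/EBP factors, 15 are described here, of which 12 entered the test and 6 rose. The DEGs were 4, all up. Over all tested genes 4.60% rose and 2.01% were DEGs up. The 4 were DDIT3, given above, CEBPG, which heterodimerises with ATF4 and other C/EBP factors (20.6 ± 2.89 to 43.4 ± 2.60 TPM, log2 fold change 1.05), and the MAF genes MAF (2.55 ± 0.781 to 7.03 ± 0.873 TPM, log2 fold change 1.20) and MAFF (34.9 ± 2.47 to 78.9 ± 4.19 TPM, log2 fold change 1.16). MAFF, a small MAF protein without an activation domain, and DDIT3 remained DEGs in all 6 fits with 1 library left out, CEBPG in 5 (log2 fold change 0.94 without control replicate 3, and 0.96 with centred libraries, where 3 of the 4 were DEGs) and MAF in 2, since its adjusted p from limma rose above 0.05 without control replicate 1 or without any 1 of the rutaecarpine libraries. MAFG, another small MAF, rose by 0.91 on the log2 scale and the third of them, MAFK, had a log2 fold change of 0.52 that did not pass (adjusted p = 0.0615 from limma). The AP-1 inhibitor JDP2 (16.9 ± 2.63 and 16.2 ± 1.18 TPM) and the JUN partners ATF2 (22.9 ± 9.85 and 29 ± 4.00), ATF7 (12.2 ± 3.06 and 11.8 ± 1.43), BATF2 (1.45 ± 0.300 and 1.12 ± 0.229) and BATF3 (17.8 ± 4.70 and 12.9 ± 0.601) did not pass. BATF was listed at 0 in all 6 libraries, and CEBPE was below 0.2 TPM and was not tested.

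**Figure D4:**
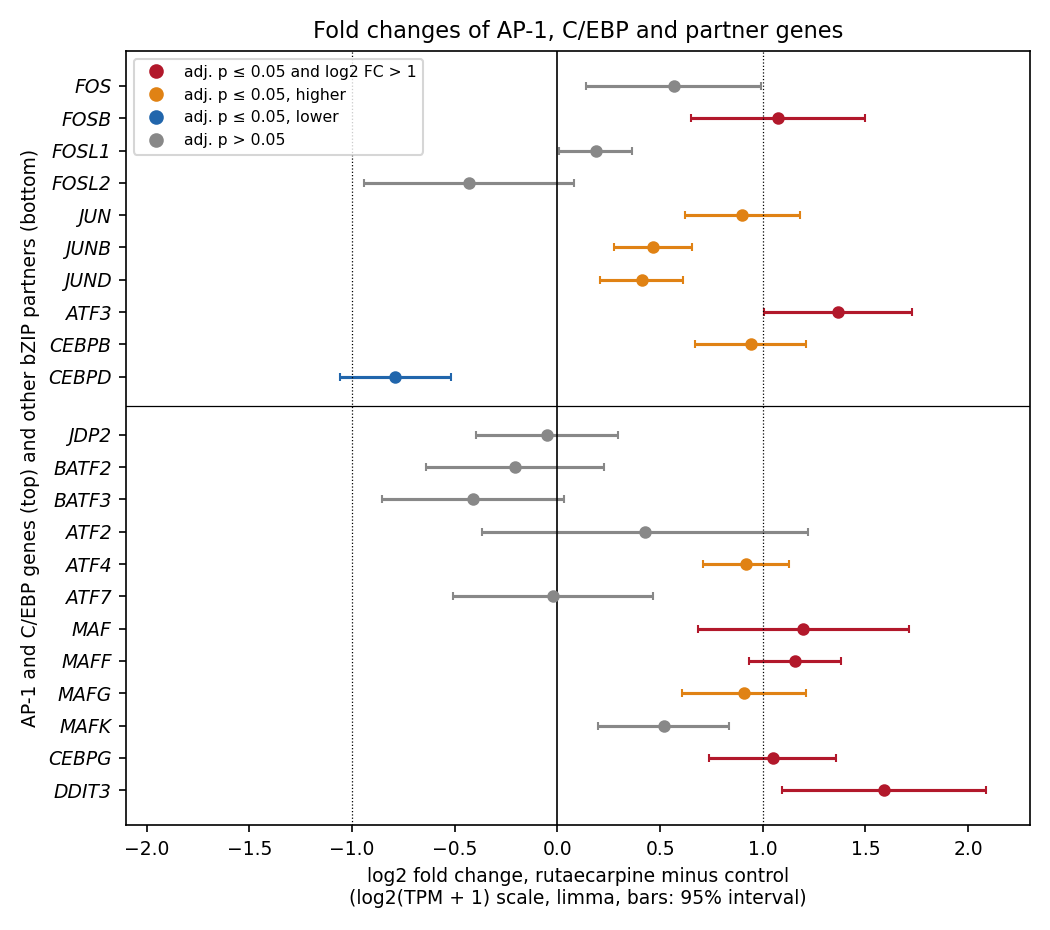
Log2 fold change with its 95% interval from limma for the 10 AP-1 and C/EBP genes (top) and 12 tested partner genes (bottom), on the log2(TPM + 1) scale, with dotted lines at the thresholds of 1 and -1. ATF3 and FOSB at the top and DDIT3, MAF, MAFF and CEBPG at the bottom lie beyond 1 and passed the test, and CEBPD is the gene at the top that fell.

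AP-1 genes are controlled through MAP kinases and through the factors SRF, ELK1, ELK3, ELK4, CREB1 and STAT3. Of 22 such genes, 21 were tested, 0 were DEGs by limma, 1 rose (MAP3K8, a kinase upstream of ERK and JNK, at 5.37 ± 0.648 and 8.84 ± 0.506 TPM, adjusted p = 0.0480 from limma) and 0 fell. Their median log2 fold change was 0.06, beside 0.08 over all tested genes, of which 4.60% rose and 4.68% fell. Without adjustment, 4 of the 21 genes of the list had a p under 0.05, 1 of them lower. That gene was MAP2K6, at 1.44 ± 0.237 and 0.487 ± 0.201 TPM, with groups that did not overlap. Its log2 fold change of -0.72 was the largest of the list in size but did not pass (adjusted p = 0.0578 from limma). With 1 library left out, MAP3K8 passed in only 1 of 6 fits, that without control replicate 3, and its adjusted p from limma reached 0.200 in the others. MAPK8, which encodes JNK1, the kinase that phosphorylates JUN, was at 13.1 ± 3.10 and 19.3 ± 3.30 TPM, and SRF at 11.8 ± 0.945 and 12.6 ± 0.540 TPM. These are transcript levels and do not measure kinase activity.

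Of 26 genes known as AP-1 targets, 22 were tested, 11 rose, 1 fell and 7 were DEGs, all up. Over all tested genes 4.60% rose, 4.68% fell and 2.01% were DEGs up. The list's median log2 fold change was 0.68, beside 0.08 over all tested genes. As this list too was chosen with earlier results known, these values are no independent test. The DEGs were the collagenase MMP1 (4.13 ± 0.431 to 15.4 ± 0.896 TPM), the protease inhibitor SERPINB2 (7.31 ± 0.807 to 348 ± 29.8), the cytokines IL6 (632 ± 19.7 to 1343 ± 132), IL11 (24.8 ± 1.10 to 50.7 ± 2.02) and LIF (111 ± 32.9 to 889 ± 135), the chemokine CXCL8 (371 ± 69.4 to 1893 ± 214) and the tissue factor gene F3 (51.1 ± 21.2 to 124 ± 8.34). Of the 7, F3 stayed past both thresholds in 1 of the 6 fits with 1 library left out, that without control replicate 1, and IL11, at a log2 fold change of 1.00, in 3 of them (not without control replicates 2 or 3 or rutaecarpine replicate 3), while the other 5 genes were DEGs in all 6. With the libraries centred on their medians 5 of the 7 were DEGs, as IL6 was at 0.99 and IL11 at 0.91 on the log2 scale. The urokinase receptor gene PLAUR (150 ± 2.70 to 236 ± 15.6 TPM), the metalloprotease inhibitor TIMP1 (2587 ± 322 to 4926 ± 565), the phosphatase gene DUSP1 (51.8 ± 4.82 to 85.5 ± 6.49) and the sphingosine kinase gene SPHK1 (31.7 ± 2.80 to 46.8 ± 4.74) rose without being DEGs. PLAUR, TIMP1 and SPHK1 did not pass with centred libraries, SPHK1 passed only without control replicate 3 when 1 library was left out, and DUSP1 did not pass without rutaecarpine replicate 3. The stromelysin MMP3, another protease of the list, fell from 413 ± 44.0 to 220 ± 14.5 TPM. The urokinase gene PLAU was at 116 ± 1.83 and 106 ± 7.13 TPM (adjusted p = 0.364 from limma), and the cyclin gene CCND1 at 133 ± 37.7 and 145 ± 17.7 TPM (adjusted p = 0.685 from limma).

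Of 13 genes known as C/EBP targets, 10 were tested, 5 rose, all of them DEGs, and 1 fell. Over all tested genes 4.60% rose, 2.01% were DEGs up and 4.68% fell. The list's median log2 fold change was 0.80, beside 0.08 over all tested genes. For the same reason as for the AP-1 targets, these values are no independent test. IL6 and CXCL8 belong to both target lists. The others were CSF3, which encodes the granulocyte growth factor G-CSF (576 ± 38.8 to 2536 ± 165 TPM), IL1B (197 ± 20.8 to 6670 ± 320) and PTGS2, which encodes COX-2 (52.0 ± 18.6 to 803 ± 122). PTX3, a pentraxin of the acute phase response, fell from 118 ± 3.07 to 64.4 ± 7.02 TPM, and all 6 of these genes passed in every fit with 1 library left out. With centred libraries 4 of the 5 were DEGs, all but IL6. C3, the central complement gene, was at 805 ± 48.0 and 724 ± 11.9 TPM (adjusted p = 0.262 from limma). SAA1 was at 2.24 ± 0.594 and 1.00 ± 0.105 TPM (adjusted p = 0.0830 from limma). Of the 10 tested, the groups lay apart for 6 genes that were higher and for 3 that were lower. Over all tested genes the shares were 19.3% and 14.0%. Whether these targets moved through the AP-1 and C/EBP genes was not tested.

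**Figure D5:**
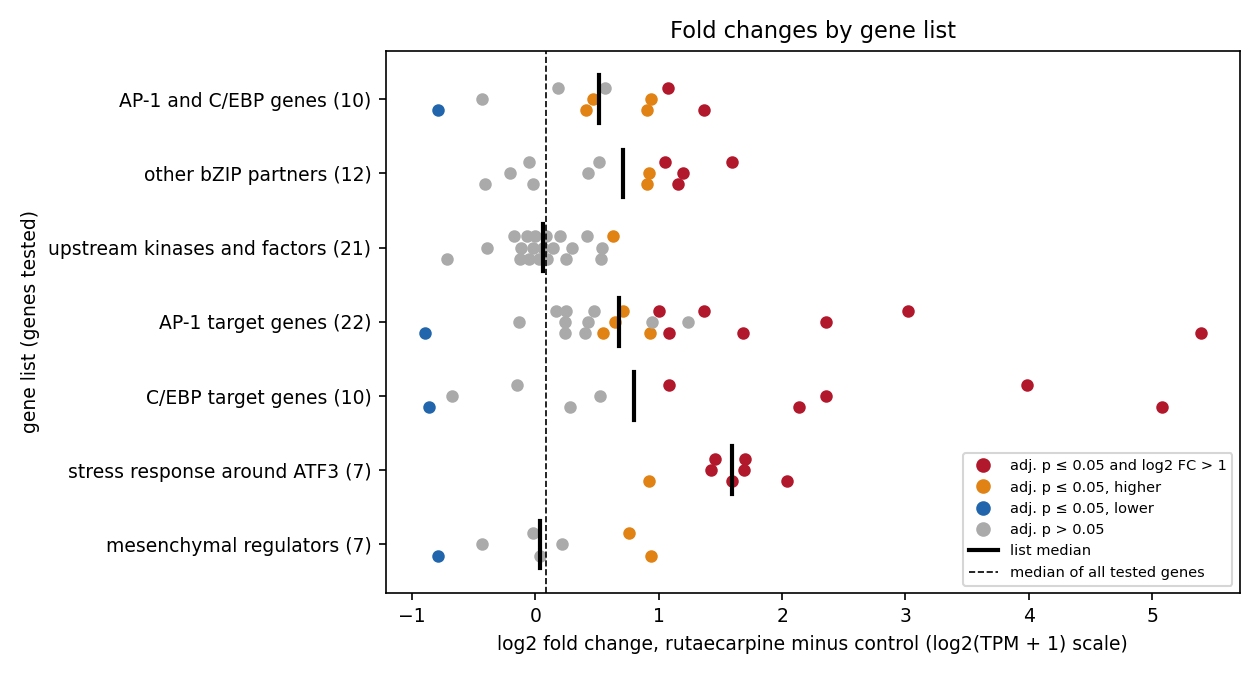
Log2 fold change of each tested gene (point) by gene list, coloured by its result in limma, with a bar at each list's median and a dashed line at the median of all tested genes, 0.08. The stress response genes around ATF3 have a median of 1.59 and all lie to the right of 0, while the upstream kinases and factors have a median of 0.06. The lists were chosen with earlier results of these data known.

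Of 7 regulators of the mesenchymal state of glioblastoma, which include CEBPB, CEBPD and FOSL2, 2 rose and 1 fell. Over all tested genes 4.60% rose and 4.68% fell. CEBPB and BHLHE40 (146 ± 34.2 to 243 ± 19.3 TPM, adjusted p = 0.0436 from limma) rose and CEBPD fell. BHLHE40 passed in only 1 of the 6 fits with 1 library left out, that without control replicate 3, at an adjusted p of up to 0.160 from limma in the others. STAT3, their partner in that network, was at 42.2 ± 9.62 and 41.4 ± 7.38 TPM, RUNX1 at 28.1 ± 10.4 and 31.3 ± 4.96, and ZBTB18, a repressor of the state, at 7.91 ± 2.75 and 7.81 ± 0.313, and none of these 3 passed. The list's median log2 fold change was 0.04, beside 0.08 over all tested genes.

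The genes whose values over the 6 libraries lay closest to those of FOSB, by the Euclidean distance of log2(TPM + 1) after subtraction of each gene's control mean, were UNC5B, a netrin receptor gene (23.5 ± 2.60 to 48.8 ± 6.27 TPM, distance 0.218), and CASTOR1, an arginine sensor gene (8.87 ± 0.312 to 20.3 ± 0.764 TPM, distance 0.226). Those closest to ATF3 were TCIM (12.2 ± 0.860 to 31.7 ± 3.20 TPM, distance 0.312) and ADAMTS7, a metalloprotease gene (2.49 ± 0.110 to 7.45 ± 0.709 TPM, distance 0.315). HOOK2 lies antisense over all 1820 bases of JUNB at 21.6 ± 3.36 and 25.9 ± 0.307 TPM, with the same open point on strand as for ERCC1 and FOSB. FLJ31356 and AC104695.3 within FOSL2 and CEBPB-AS1 at CEBPB had mean values below 0.5 TPM in both groups.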

How the data were processed

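The submitters' processing notes name the build GRCh38.p13 and the tools RSEM, DESeq2 and edgeR, without their roles. The authors extracted RNA from U87 cells, sequenced it on an Illumina instrument and deposited TPM per gene and library, so that each value is a share of a library after division by transcript length. The aligner, the annotation release and the strand setting are not given in the sources used here. All 6 columns were matched to a sample by its label and 0 were left over. Of the 60671 genes, 35671 carry no name in the table and were looked up by Ensembl identifier.

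Values were transformed to log2(TPM + 1), and genes with 1 TPM or more in 3 or more libraries were compared with limma 3.58.1 in R 4.3.3 (empirical Bayes, mean-variance trend, two-sided, no covariates), and the Benjamini-Hochberg adjustment covered every gene tested. Thresholds follow the study. The count models of the study need read counts and were not applied to TPM, and no scaling between libraries was added. Because TPM are shares, a large gain of abundant transcripts lowers all others, and the added 1 understates changes of weak genes. Shares and sums were compared by exact permutation tests. The procedure was tested on 5 simulated sets with 200 genes changed by 2 on the log2 scale. It recovered 89.8% of the changed genes, with a mean of 3.6 false calls. That change is larger than any among the AP-1 and C/EBP genes described here, where ATF3 had the largest log2 fold change at 1.37. The simulation therefore gives no recovery rate for changes as small as theirs. The rest was done in Python 3.11.15, with scipy 1.17.1 for the permutation tests, pandas 2.3.3 and numpy 2.4.6 for the tables, and matplotlib 3.10.9 for the plots.

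The 10 genes and the gene lists were chosen with earlier results of these data known. The genes named are the 10, list genes that were DEGs, the partner genes (1 gene of that list is not reported here), annotated overlapping genes and, for each of the 10 that was a DEG, the 2 tested genes closest to it. Genes that passed without being DEGs were added to these once their values had been seen. So were MAPK8, MAP2K6, SRF, PLAU, CCND1, C3, SAA1, STAT3, RUNX1 and ZBTB18. The searches for TGACG and for a CRE with at most 1 mismatch were also added after the promoters had been seen. Alternatives were libraries centred on their medians, no trend, no filter or a stricter filter, pseudocounts of 0.1 and 0.01, the replicate number as a block, library weights, removal of length and GC trends (natural splines with 5 degrees of freedom), other thresholds and each library left out in turn.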

Additional observations from a re-analysis of the deposited data

How the results depend on the processing

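No direction of the 10 genes changed in 15 alternative fits. With 2 of the 10 DEGs up and 0 down by limma, the count up was 1 with the libraries centred on their medians (FOSB log2 fold change 0.98) and with no filter on low TPM (FOSB adjusted p = 0.0590 from limma), between 1 and 3 with 1 library left out, 6 with no fold threshold, 0 at an adjusted p no higher than 0.001 and 4 at a threshold of 1.5-fold, which was added after the data were seen. The count down was 1 with no fold threshold and 1 at 1.5-fold. The number that passed and were higher (6 of 10) lay between 3 and 6 with 1 library left out. That number was 4 with centred libraries or no filter on low TPM, 5 without the trend, and 7 with library weights or the length and GC trends removed. The number that passed and were lower (1 of 10) lay between 1 and 2 with 1 library left out. It was also 2 with the length and GC trends removed and with library weights, where FOSL2 passed. FOS passed in 2 of the 15 fits, JUNB in 8 and JUND in 6. Among the mesenchymal regulators the count of DEGs up (0 of 7) was between 0 and 1 with 1 library left out. With library weights 3 of the 10 were DEGs up, and control replicate 3 had the lowest weight, 0.121. Over all tested genes the median log2 fold change moved from 0.08 to -0.01 without that library or with centring.

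Equal replicate numbers showed no sign of a pairing. Deviations from the group means correlated at 0.116, -0.266 and -0.215 for numbers 1, 2 and 3, and no library correlated best with its own number. With 3 libraries per group and control replicate 3 apart from the rest, these correlations cannot exclude a pairing. With the replicate number as a block, 1 of the 10 was a DEG up, 3 passed and were higher, FOSB had an adjusted p of 0.0883 from limma, and 318 of all tested genes were DEGs against 505 without the block.

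Models for read counts were not run because the values are TPM. The unknown depth leaves counting error open, most of all for FOSB and FOS at a few TPM.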

Other observations

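A list of 25 genes of the other bZIP families, written after the values of the AP-1 and C/EBP genes had been seen, held 19 tested genes, of which 3 rose and 1 fell. Their median log2 fold change was 0.17, beside 0.08 over all tested genes, of which 4.60% rose and 4.68% fell. NFE2L2, which encodes NRF2, the activator of antioxidant genes and a partner of the small MAF proteins, was the DEG of the list. It went from 47.4 ± 6.43 TPM (SD, n = 3) to 108 ± 12.1 TPM, a log2 fold change of 1.18 (adjusted p = 0.00282 from limma), and was a DEG in all 6 fits with 1 library left out. XBP1, a factor of the unfolded protein response, rose from 106 ± 6.32 to 199 ± 19.8 TPM and passed in all 6 of those fits. NFIL3, a repressor of the circadian output pathway, rose from 36.5 ± 2.44 to 52.6 ± 1.45 TPM but passed in 2 of them. CREB3L1, a membrane-bound factor that drives collagen secretion, fell from 81.9 ± 3.93 to 53.6 ± 4.20 TPM and passed in 5, not without rutaecarpine replicate 3. BACH1, the repressor that competes with NRF2 for small MAF partners, was at 12.6 ± 6.08 and 13.7 ± 2.88 TPM, and the CREB relative ATF1 at 18.9 ± 5.24 and 22.5 ± 1.81 TPM, and neither passed.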
